A study of Caenorhabditis elegans with 4 samples.

Results

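LIN-61 peaks on the left arm of chromosome IV of the nematode Caenorhabditis elegans were examined in third-stage (L3) larvae. The arm was taken as the first of 3 equal sections of the chromosome, positions 1 to 5831264 in the WormBase WS220 build, and a peak belonged to it when its midpoint lay there. Of the 14662 peaks in the authors' list for the whole series, 1475 met this rule, and none was filtered out. The replicate 1 list held 1256 such peaks and the replicate 2 list 1418. The rule that picks the members uses position alone, but the arm itself was selected with earlier results of these data known.

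The peaks come from chromatin immunoprecipitation followed by sequencing (ChIP-seq), in which DNA bound by a protein is enriched with an antibody and read out as local pile-ups of reads. All larvae were of strain N2 (wild type), kept at 20 degrees Celsius, with males and hermaphrodites mixed, and the antibody was an affinity-purified rabbit polyclonal against LIN-61. There were 2 ChIP libraries and 2 input DNA libraries, and the inputs were not analysed here. Whole larvae were used, so the peaks average over tissues and over both sexes, and no library from animals without LIN-61 was analysed here, so the specificity of the antibody was not measured. Nothing in the labels says whether the replicates came from separate cultures, and the spread between them may be technical. No file gives read counts, so the depth is unknown and a difference in peak number between the lists can come from depth.

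LIN-61 is built of MBT repeats, a fold that recognises methylated lysines on histone tails, and it is known to bind histone H3 methylated at lysine 9. It belongs to the synMuv B genes, which keep genes repressed through chromatin, and its loss is known to weaken silencing of repetitive DNA. The outer parts of C. elegans autosomes are rich in repeats and in methylated lysine 9 of histone H3, and their middle parts are rich in widely expressed genes. Chromosome IV also carries most loci of the 21U-RNAs, the piRNAs of this animal, and its meiotic pairing centre lies toward the left end. Genes, repeats and these loci were not placed on the peaks, because no annotation in the coordinates of the peak lists was used here, and for the same reason no base sequence is shown.

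The arm is 5.83 Mb long and makes up 5.82% of the sequence, and it carried 12.6% of all peaks in replicate 1, 10.5% in replicate 2 and 10.1% in the whole-series list. Of the peaks on chromosome IV it held 65.9% in replicate 1 and 58.5% in replicate 2. Peak density was 215 per Mb in replicate 1 and 243 per Mb in replicate 2, a mean of 229 ± 20 (SD, n = 2). Peaks covered 9.65% of the arm in replicate 1 and 14.8% in replicate 2, and 18.1% in the whole-series list. The replicates thus differed more in the bases covered than in the number of peaks.

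Peaks did not thin out evenly from the chromosome end towards the middle section. From the left end inward, the arm held an outer end below the arm's own density, a long dense block and a steep fall. After these came a smaller second block, a nearly empty stretch and a small cluster close to the inner boundary. These 6 segments were drawn after the counts in 100 kb windows had been seen, and they are given as a description without a test. Both replicates showed this succession of dense and sparse ground, although the segments of middling density ranked differently in each. Across the 59 windows of 100 kb the peak densities of the replicates had a Spearman's rho of 0.94. The windows share their libraries and neighbours and are not independent.

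**Figure D1:**
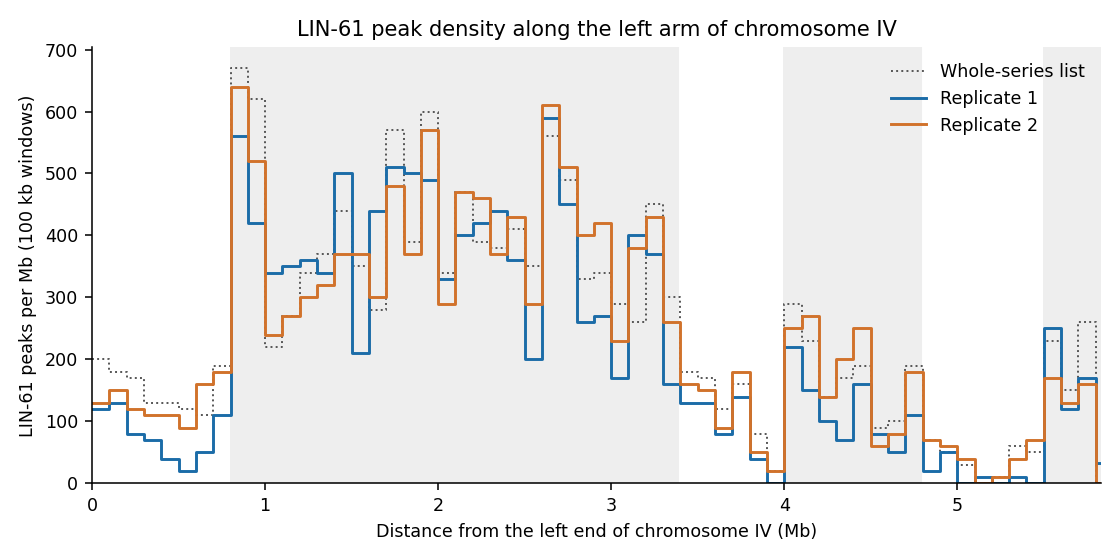
LIN-61 peaks per Mb (vertical axis) in 100 kb windows against the distance in Mb from the left end of chromosome IV (horizontal axis), for replicate 1, replicate 2 and the authors' whole-series list; white and grey bands mark the 6 segments. Both replicates rise sharply at 0.8 Mb, stay high until about 3.3 Mb, have a smaller block from 4.0 Mb and a cluster beyond 5.5 Mb.

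The outermost 0.8 Mb, the part next to the telomere, was sparse for this arm. It held 62 peaks in replicate 1 and 105 in replicate 2, or 77.5 and 131 per Mb, and they covered 2.27% and 4.62% of its bases. In 13.7% of the arm's length it had 4.94% and 7.40% of the arm's peaks. The peaks there were narrow, with median widths of 208 and 271 bp against 273 and 343.5 bp over the whole arm. The end of the chromosome was therefore not where LIN-61 peaks were densest on this arm. Over all chromosomes the densities were 99.3 per Mb in replicate 1 and 134 per Mb in replicate 2. The outermost 0.8 Mb thus lay below that value in replicate 1 and close to it in replicate 2. In the whole-series list it had 154 per Mb against 146 over all chromosomes.

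Density then rose abruptly. The window from 0.7 to 0.8 Mb held 11 peaks in replicate 1 and 18 in replicate 2, and the next window, from 0.8 to 0.9 Mb, held 56 and 64. That window had the most peaks of all 59 in replicate 2 and in the whole-series list (67), while in replicate 1 the window from 2.6 to 2.7 Mb had the most (59). The rise stood at the same 100 kb boundary in both replicates.

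The dense block from 0.8 to 3.4 Mb carried most of the arm's peaks. It takes up 44.6% of the arm and held 984 peaks in replicate 1 (78.3% of the arm's peaks) and 1030 in replicate 2 (72.6%). Its density was 378 per Mb in replicate 1 and 396 per Mb in replicate 2, a mean of 387 ± 13 (SD, n = 2). Peaks covered 17.9% of the block in replicate 1, 26.2% in replicate 2 and 31.8% in the whole-series list. Of the 25 windows of 100 kb between 0.8 and 3.3 Mb, 24 held 20 or more peaks in both replicates. That count leaves out the block's last window, from 3.3 to 3.4 Mb, where replicate 1 fell short of 20 (16) and replicate 2 did not (26). Elsewhere on the arm, only the window from 4.0 to 4.1 Mb reached 20 in both. Like the segments, the cutoff of 20 and the limit of 3.3 Mb serve as a description without a test.

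Within the block the number of peaks and the bases they covered did not peak in the same place. Among the 500 kb windows, 1.5 to 2.0 Mb had the most peaks in replicate 1 (215) and in the whole-series list (219), and 2.5 to 3.0 Mb had the most in replicate 2 (223). Coverage was highest between 2.0 and 2.5 Mb in every list, at 21.6% in replicate 1, 32.4% in replicate 2 and 37.4% in the whole-series list. The peaks there had a median width of 318 bp (replicate 1), 402 bp (replicate 2) and 458 bp (whole-series list). The window from 1.0 to 1.5 Mb stood out by score in replicate 2 and in the whole-series list, with the median peak at percentile 75.8 and 73.8 of its list. In replicate 1 its median peak stood at percentile 59.4, below that of the window from 4.0 to 4.5 Mb (63.7).

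Past the block, density fell over a short distance. The window from 3.2 to 3.3 Mb held 37 peaks in replicate 1 and 43 in replicate 2, the following one 16 and 26, and the window from 3.4 to 3.5 Mb 13 and 16. Between 3.4 and 4.0 Mb the density was 86.7 per Mb in replicate 1 and 108 per Mb in replicate 2, a mean of 97.5 ± 15 (SD, n = 2). The last window before 4.0 Mb held no peak in replicate 1 and 2 in replicate 2. Both lists thus lost most of their peaks per window between 3.3 and 3.5 Mb.

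Peaks returned between 4.0 and 4.8 Mb, at lower density. Replicate 1 had 94 peaks there and replicate 2 had 143, or 118 and 179 per Mb, covering 5.55% and 10.2% of the bases. In replicate 1, 14.9% of them scored in the highest 10% of the whole list, and in replicate 2 11.2% did, against 9.32% and 12.7% over the arm and 10.1% and 10% over all chromosomes. The whole-series list placed 20 of its highest-scoring 10% there, 14.3% of the 140 peaks in the segment, against 13.8% over the arm and 9.99% over all chromosomes.

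The stretch from 4.8 to 5.5 Mb was nearly empty. Replicate 1 had 9 peaks in it and replicate 2 had 29, so the density was 12.9 and 41.4 per Mb, below the 39.6 and 57.6 per Mb of the middle section of the chromosome in each replicate. Density in the dense block was 29.4 times as high as in this stretch in replicate 1 and 9.56 times in replicate 2, so the size of that contrast depended on the library. Between 5.0 and 5.5 Mb replicate 1 had 2 peaks and replicate 2 had 16, which was the widest relative gap between the replicates in any 500 kb window of the arm. The longest gaps between neighbouring peaks of the whole-series list lay here, from 5090224 to 5299133 (208.9 kb, with 1 replicate 1 peak inside) and from 5360882 to 5454251 (93.4 kb, with 1 replicate 2 peak inside). The next longest lay just before the second block, from 3900122 to 3988719 (88.6 kb), and no peak midpoint of either replicate fell in it.

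A cluster lay just inside the inner boundary. Between 5.5 Mb and 5831264 replicate 1 had 55 peaks and replicate 2 had 46, or 166 and 139 per Mb, and they covered 6.0% and 6.48% of the bases. These peaks scored low, with the median at percentile 37.7 of the list in replicate 1 and 32.8 in replicate 2. The last peak inside the boundary in the whole-series list ran from 5774540 to 5775237 (698 bp, score 13.3), and the first outside it from 5936603 to 5936774 (172 bp, score 4.13). The boundary thus fell in peak-free ground of 161 kb in that list, 116 kb in replicate 1 and 164 kb in replicate 2.

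Because of this arrangement, a single gradient described the arm poorly. When the arm was divided into 3 equal parts, the outer part had densities of 275 per Mb (replicate 1) and 281 per Mb (replicate 2), the middle part 290 and 335, and the inner part 81.3 and 113. The outer part exceeded the inner one 3.39-fold in replicate 1 and 2.48-fold in replicate 2, a mean of 2.93 ± 0.64 (SD, n = 2). The middle part exceeded the inner one 3.56-fold and 2.96-fold, and exceeded the outer one 1.05-fold and 1.19-fold. Across the 12 windows of 500 kb, density and distance from the left end had a Spearman's rho of -0.52 in replicate 1 and -0.54 in replicate 2, given as a description. The median peak lay at 2.18 Mb in replicate 1 and 2.33 Mb in replicate 2, and 75% of the arm's peaks lay before 3.01 and 3.17 Mb.

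Most peaks on the arm were narrow, and a small number were very broad. The narrowest measured 146 bp in every list. The middle 50% of widths ran from 191 to 501 bp in replicate 1, from 217 to 714 bp in replicate 2 and from 231 to 836 bp in the whole-series list. Median widths were 273 bp for replicate 1 and 343.5 bp for replicate 2, with a mean of 308 ± 50 bp (SD, n = 2), and 388 bp in the whole-series list. Over all chromosomes the medians were 278, 313 and 339 bp, so that the arm lay slightly below its list in replicate 1 and above it in the others. The widest peaks measured 8125 bp in replicate 1 and 13030 bp in replicate 2.

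Broad peaks of 2 kb or more lay mostly in the dense block, as did the arm's peaks of all widths. The whole-series list had 86 of them on the arm, 5.83% of its arm peaks, where the share over all chromosomes was 4.68%. Replicate 1 had 28 (2.23% against 1.51% over all chromosomes) and replicate 2 had 60 (4.23% against 3.33%). The 86 peaks held 31.9% of all bases in arm peaks. Of the 86, 74 lay between 0.8 and 3.4 Mb, where 71.1% of all arm peaks of that list lay, and 1 lay in the outermost 0.8 Mb. Within the block 7.06% of the peaks were broad, against the 5.83% over the arm.

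**Figure D2:**
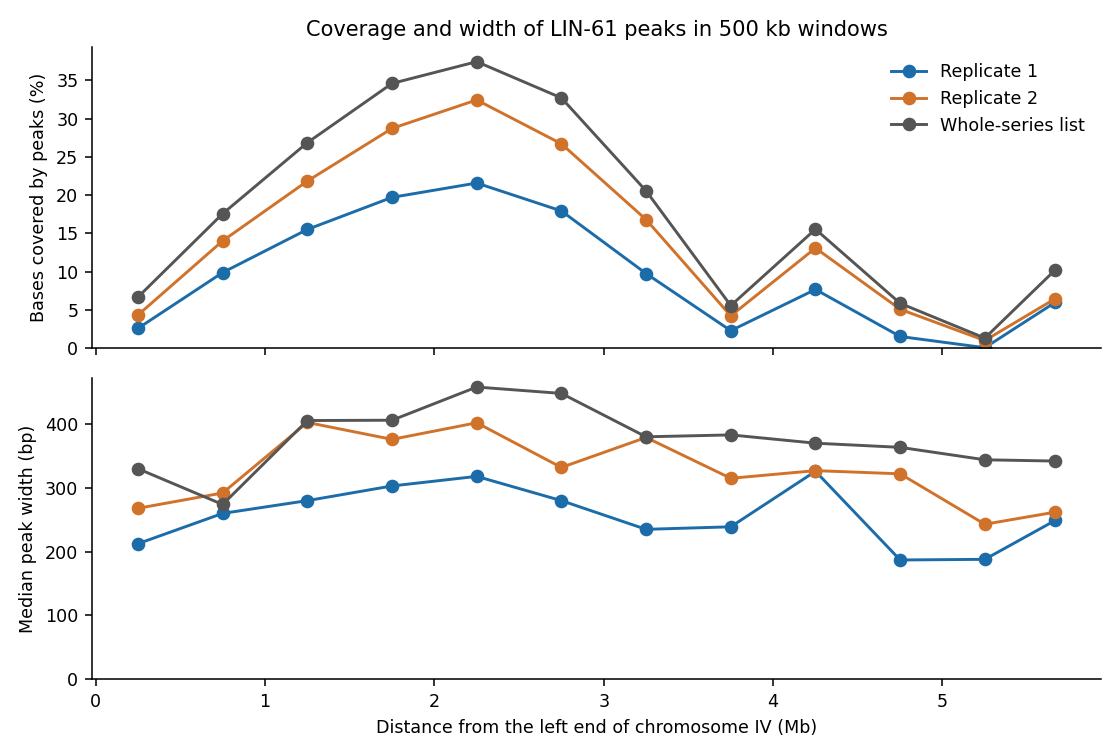
Share of bases covered by peaks in percent (upper panel) and median peak width in bp (lower panel) in 500 kb windows against the distance in Mb from the left end of chromosome IV, for both replicates and the whole-series list. Coverage is highest at 2.0 to 2.5 Mb in all 3 lists and lowest at 5.0 to 5.5 Mb, and replicate 2 lies above replicate 1 in all 12 windows.

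The replicates divided the arm into peaks differently, and each also covered ground that the other did not. Replicate 1 had more peaks than replicate 2 in 3 of the 12 windows of 500 kb, those from 1.0 to 2.0 Mb and the last one, although its whole list is the shorter, with 9958 against 13486 peaks. Between 1.0 and 1.5 Mb it had 189 peaks and replicate 2 had 150. By covered bases replicate 2 was the higher in 12 of 12 windows, and in that same window it covered 21.8% against 15.5% in replicate 1. Of the 667 whole-series peaks overlapped in both replicates, 204 met at least 2 peaks of replicate 1 and 148 met at least 2 peaks of replicate 2. The same shares over all chromosomes are not given here, so these counts are not read as particular to the arm. When peaks less than 500 bp apart were joined, 731 regions remained in replicate 1 and 829 in replicate 2. These were 58.2% and 58.5% of the number of arm peaks, against 61.9% and 63.4% over all chromosomes. Windowed coverage had a Spearman's rho of 0.97 between the replicates across the 12 windows, and windowed peak density 0.92.

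The widest arm peak of the whole-series list showed the different division into peaks most plainly. It ran from 1848292 to 1861336, over 13045 bp, with a score of 57.5, and met 16 peaks of replicate 1 but a single peak of replicate 2. The second widest, from 2305791 to 2317224 (11434 bp), met 8 peaks of replicate 1 and 2 of replicate 2. The third, from 3105196 to 3115983 (10788 bp), went the other way, with 5 in replicate 1 and 9 in replicate 2. The peak from 1647561 to 1658107 (10547 bp) met 6 and 3, and the peak from 4467079 to 4476966 (9888 bp), in the second block, met 4 and 2.

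Support by the replicates was read from overlap, with 1 shared base taken as enough. Of the 1475 arm peaks of the whole-series list, 667 or 45.2% (95% exact binomial interval 42.7 to 47.8, counting error only) were overlapped in both replicates, against 37.2% over all chromosomes. A further 481 (32.6%) were overlapped in replicate 2 alone, against 39.1%, and 155 (10.5%) in replicate 1 alone, against 9.46%. The remaining 172 (11.7%) met no peak of either replicate, against 14.3%. The peaks found in both replicates held 73.6% of the bases in arm peaks and had a median width of 814 bp and a median score of 23.3. Those found in neither had a median width of 186.5 bp and a median score of 3.56, and all 172 were under 500 bp wide.

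Seen from the replicates, 972 of the 1256 arm peaks of replicate 1 (77.4%) were found in replicate 2, against 74.7% over all chromosomes. Of the 1418 arm peaks of replicate 2, 798 (56.3%) were found in replicate 1, against 47.1%. The lists shared 434 kb on the arm, which made up 77.1% of what replicate 1 covered and 50.3% of what replicate 2 covered. Among replicate 1 peaks in the highest-scoring 25% of their list, 314 of 321 (97.8%) were found in replicate 2, and in the lowest 25% 146 of 265 (55.1%) were. For replicate 2 the values were 377 of 435 (86.7%) and 82 of 307 (26.7%). Shares by score over all chromosomes are not given here, so these values are not read as particular to the arm.

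Support followed width closely. Of the peaks under 250 bp, 37 of 440 (8.41%, interval 5.99 to 11.4) were overlapped in both replicates. The share was 33.9% of 449 peaks of at least 250 but under 500 bp, 76.1% of 326 peaks of at least 500 bp but under 1 kb, 86.8% of 174 peaks of at least 1 kb but under 2 kb, and 91.9% of the 86 broad ones. Wide peaks meet a peak of another list more easily by overlap alone. In the class starting at 500 bp the share over all chromosomes was 65.4%, below the arm's interval of 71.1 to 80.6, and in the class under 250 bp it was 5.59%, also below the interval. In the other 3 classes the value for all chromosomes lay inside the arm's interval. The intervals treat peaks as independent, several classes were compared, and the value for all chromosomes includes the arm. These comparisons are therefore a description and no test. The part of the arm's higher peak density in them was not tested.

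**Figure D3:**
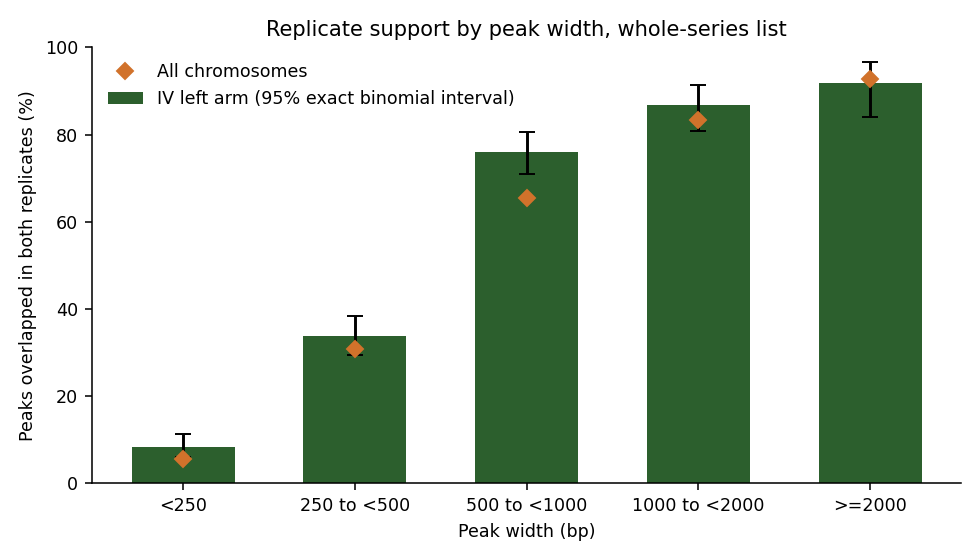
Percent of whole-series peaks overlapped by at least 1 bp in both replicates (vertical axis) by peak width in bp (horizontal axis); bars are the IV left arm with 95% exact binomial intervals for counting error, and diamonds are all chromosomes. The share climbs from 8.41% under 250 bp to 91.9% at 2 kb or more.

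Support also varied along the arm. In the dense block 520 of 1048 whole-series peaks (49.6%, interval 46.5 to 52.7) were overlapped in both replicates, and in the outermost 0.8 Mb 35 of 123 (28.5%, 20.7 to 37.3). The share was highest from 2.5 to 3.0 Mb, with 112 of 207 peaks (54.1%). It was lowest from 5.0 to 5.5 Mb, with 1 of 15 (6.67%), where 12 of the 15 were found in replicate 2 alone. In the cluster at the inner boundary 21 of 64 (32.8%) were found in both and 16 (25%) in replicate 1 alone, the highest share of that kind among the windows. In the outermost 0.8 Mb the median peak stood at percentile 40.2 of the score in replicate 1 and 38.2 in replicate 2, against 51.3 and 56.3 over the arm, and peaks were narrower. The segments were drawn after the peak counts of these same lists had been seen, and peaks meet overlaps more easily where both lists are dense. The part of density, width and score in these shares was not tested.

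**Figure D4:**
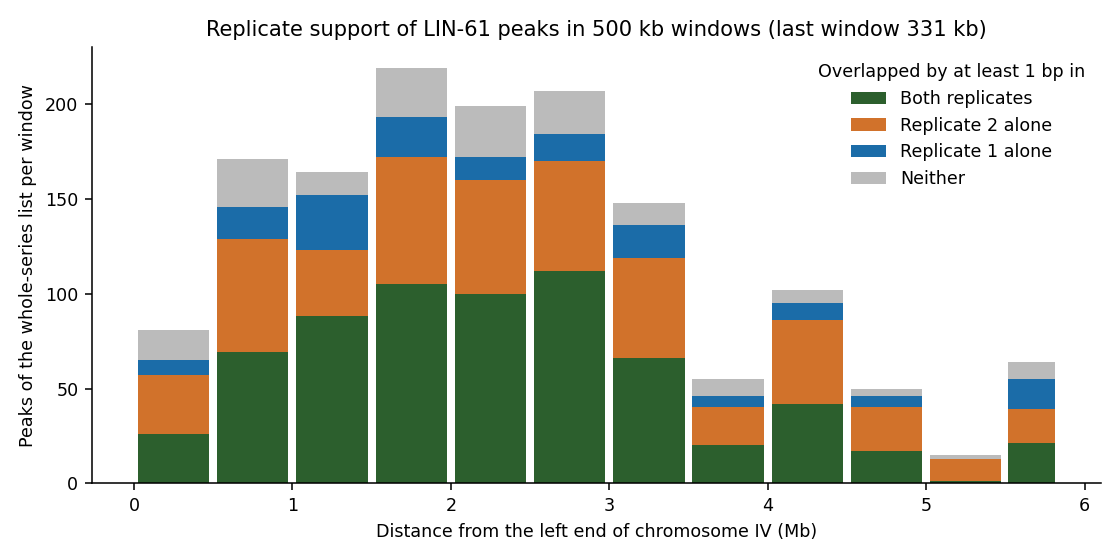
Number of whole-series peaks per 500 kb window (vertical axis; the last window is shorter) against the distance in Mb from the left end of chromosome IV, split by whether a peak was overlapped in both replicates, in 1 of them or in neither. Windows from 1.0 to 3.0 Mb hold 88 to 112 peaks found in both replicates, and the window from 5.0 to 5.5 Mb holds 1.

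Peaks on the arm stood slightly closer together than in the whole list. Neighbouring peaks were a median of 723 bp apart on the arm for replicate 1 and 749 bp for replicate 2, against 879 and 1042 bp over all chromosomes, and 57.9% and 55.4% of the distances were under 1 kb, against 52.4% and 49.4%. Runs of peaks with neighbours less than 5 kb apart took in 96.0% of the arm's peaks in replicate 1 and 93.9% in replicate 2, leaving 50 and 86 single peaks. Stretches that lay in such runs in both replicates numbered 126 and covered 1427 kb, 24.5% of the arm. Of these, 18 were at least 20 kb long, and all 18 lay between 0.787 and 3.26 Mb. Values over all chromosomes are not given for runs or shared stretches, so neither is read as particular to the arm.

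The 5 longest shared stretches were of similar length and lay across the dense block. The longest ran for 55.5 kb from 1923457 to 1978934, and held 36 replicate 1 peaks and 43 replicate 2 peaks. The next, 55.3 kb from 787272 to 842565, sat on the outer edge of the block, with 41 and 34 peaks, and it was part of the longest run of replicate 1 (784503 to 842565). The others ran from 2634827 to 2688511 (53.7 kb), from 2741525 to 2794214 (52.7 kb) and from 1828033 to 1879512 (51.5 kb). Coverage inside the last of these was the highest of the 5, at 46.5% in replicate 1 and 61.8% in replicate 2, and it contains the widest peak described above. The order of stretches this close in length is not firm, since 1 missed peak can split a run.

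Most of the highest-scoring peaks lay in the dense block, as did most arm peaks found in both replicates whatever their score. Among arm peaks of the whole-series list that both replicates overlapped, the 10 with the highest scores were taken, of which 9 lay in the dense block, a segment that held 520 (78.0%) of the 667 peaks they were taken from. Of the 10, 7 lay between 2.2 and 2.8 Mb, limits set after seeing these same peaks, where 135 (20.2%) of the 667 lay. The first ran from 2254577 to 2263480 over 8904 bp and ranked 2 in the whole list, with a score of 212.3, and its best overlapping peaks scored 177.2 in replicate 1 and 224.7 in replicate 2. The peak from 2711811 to 2720159 (8349 bp) scored 182.7 and matched a single peak in each replicate, with scores of 159.0 and 161.6. Its neighbour from 2704612 to 2708566 scored 167.5, and the peak from 2764888 to 2772302 scored 171.8. The score is the authors' own, its scale is not stated, and it was used to rank peaks within a list.

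Scores of the remaining peaks are given list by list. The lists have no known common scale, so these scores are not read as a difference between the replicates. The peak from 1344731 to 1346433 had a score of 166.1 in the whole-series list, 134.9 in replicate 2 and 23.7 in replicate 1. The peak from 1476042 to 1477878 had 165.5, 121.8 and 47.1 in the same order. The peak from 4211417 to 4215000, the only one of the 10 outside the dense block, scored 145.9 in the whole-series list, 84.6 in replicate 1 and 142.3 in replicate 2. The other 3, from 2267266 to 2268716, from 2333883 to 2334956 and from 2600204 to 2608598, tied at 145.3. They ranged from 1074 to 8395 bp in width, and the last met 9 peaks of replicate 1 and 7 of replicate 2. The highest score of an arm peak without support in both replicates was 63.5.

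Set against other sections of the genome, the left arm of IV was much denser than the rest of its own chromosome. It exceeded the middle section of IV 5.44-fold in replicate 1 and 4.22-fold in replicate 2 (mean 4.83 ± 0.86, SD, n = 2), and the right arm of IV 3.00-fold and 2.12-fold (mean 2.56 ± 0.63). By covered bases the ratios to the right arm were 3.20 and 2.42. Against the left arm of chromosome I the replicates differed in direction, with a ratio of 1.05 in replicate 1 and 0.825 in replicate 2. Against the left arm of chromosome III the ratio was 0.790 and 0.831. With 2 libraries the exact two-sided sign-flip permutation test cannot give a p below 0.5, which it gave for the contrasts with the middle section, the right arm and the left arm of III (for the left arm of I p was 1), so none of these differences is established by a test.

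The right arm of IV lacked the contrast between blocks seen on the left. In full 500 kb windows counted from the right end, it held 22 to 59 peaks in replicate 1 and 38 to 83 in replicate 2, while the left arm held 2 to 215 and 16 to 223. Divided into 3 equal parts, the right arm had an outer part 1.01 times as dense as its inner part in replicate 1 and 1.2 times in replicate 2, against 3.39 and 2.48 on the left. On the left arm of III the outer part was 1.45 and 1.59 times as dense as the inner, with the middle part the densest in both replicates as on IV. On the left arm of I it was 4.85 and 3.44 times as dense, and there the outer part was the densest. In full 500 kb windows the left arm of I held 15 to 212 peaks in replicate 1 and 39 to 270 in replicate 2. The left arm of III held 33 to 255 and 44 to 240, so a wide range was not particular to the left arm of IV. These differences between arms were not tested beyond the values of each replicate.

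**Figure D5:**
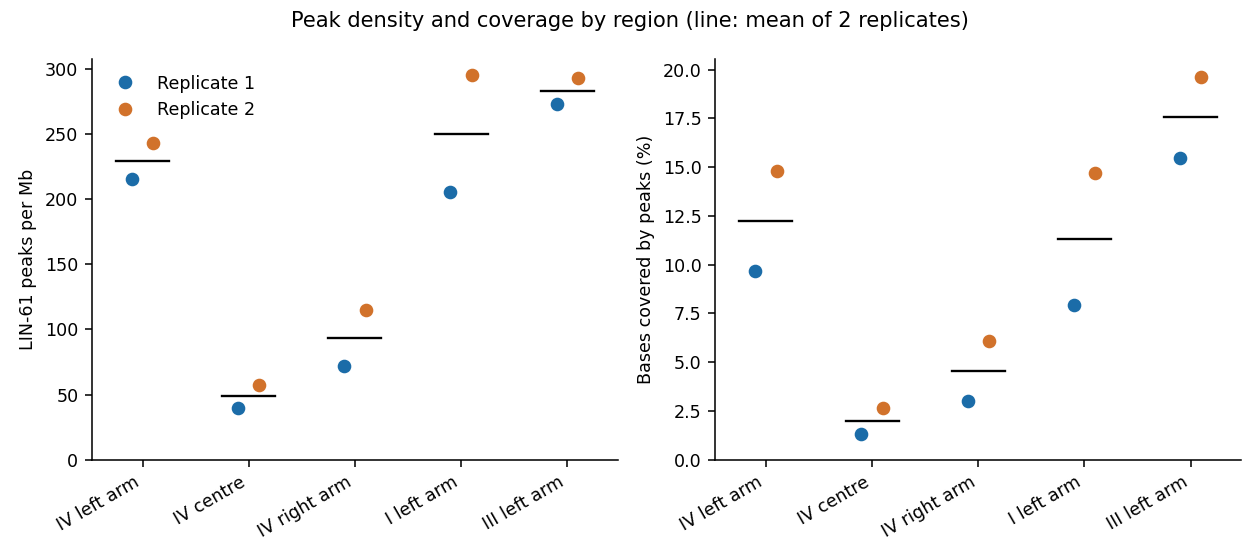
Peaks per Mb (left) and percent of bases covered by peaks (right) in the IV left arm and 4 other sections; points are the 2 replicates and lines their means. The IV left arm lies above the IV centre and the IV right arm in both replicates and below the III left arm in both.

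Support in the replicates was also higher than elsewhere on the chromosome. Of the whole-series peaks, 45.2% were overlapped in both replicates on the left arm of IV, 28.4% (interval 25.1 to 31.7) on its right arm and 20.9% (17.1 to 25.2) in its middle section. The left arm of I had 35.3% (33.0 to 37.7) and the left arm of III 53.1% (50.5 to 55.8). In the whole-series list the order of these 5 sections by support was not their order by density. There the left arm of I had more peaks per Mb than that of IV (324 against 253) and a lower share found in both. Replicate 2 also had more peaks per Mb on the left arm of I (295 against 243). In replicate 1 the order by density was the order by support, with 205 per Mb on the left arm of I and 215 on that of IV. Sections with more and wider peaks meet overlaps more easily, and the part of density and width in the order by support was not tested.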

How the data were processed

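Reads were aligned with BWA to ce10, per the submitters' processing notes, and peaks were called with MACS on WormBase WS220, the assembly that ce10 denotes, per the file headers. The sources used here do not give versions, calling threshold, filters or the use of the input, nor the way the whole-series list was made, so its values are the authors' own, without SD. The deposited score has no stated meaning. Positions are 1-based.

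From these lists, counts, densities, widths, overlaps and runs were computed with Python 3.11.15, numpy 2.4.6, pandas 2.3.3 and scipy 1.17.1, and the functions were tested on simulated data. The chromosome ends at the last peak end in any list (17493793 for IV). Percentiles of score are ranks within the whole list. Shares carry exact (Clopper-Pearson) 95% intervals, which cover counting error and treat peaks as independent.

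The arm and the lists of features were chosen with earlier results of these data known. Named were the 10 highest-scoring peaks found in both replicates, the 5 widest, the 5 longest shared stretches, the fullest and emptiest windows, the 3 longest gaps and the peaks at the boundary. Naming genes was planned, but no annotation of WS220 was used here. Alternatives were other overlap rules, window sizes and run distances, merged peaks, the higher-scoring 50% of each list, covered bases, and each replicate left out.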

Additional observations from a re-analysis of the deposited data

How the results depend on the processing

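No paired analysis was possible because peak lists of a single group, the 2 ChIP libraries, were used, and the inputs with the same numbers were not analysed here. Mean density on the arm (229 peaks per Mb) became 124 in the higher-scoring 50% of each list, 134 after merging peaks under 500 bp apart and 253 in the whole-series list, and median width (308 bp) became 525.5, 488.5 and 388 bp. The ratio of the outer to the inner part of the arm (2.93) stayed within the replicate SD under each alternative run. The ratio to the left arm of I (0.937) reversed to 1.08 in the higher-scoring 50%, to 1.11 by covered bases and to 1.05 without replicate 2, and was 0.825 without replicate 1; the ratios to the other 3 sections kept their direction under each alternative run. Under a reciprocal overlap of 50% and the midpoint rule, arm peaks found in both replicates (45.2%) became 20.5% and 30.8% (18% and 26% over all chromosomes), those in replicate 2 alone 45.6% and 42.1%, and those in neither 22.9% and 15.6% (9.86% in the higher-scoring 50%). Replicate 1 peaks found in replicate 2 became 33.4% and 69.5% (80.0% in the higher-scoring 50%), and replicate 2 peaks found in replicate 1 became 29.6% and 43.3%. Under these rules only the share found in both replicates is given over all chromosomes, so the other shares have no such value beside them. Of the 10 named peaks, 7 kept support under reciprocal overlap. The mean rho of density with position (-0.53) was -0.47 in 250 kb windows and -0.71 in 1 Mb windows, and the rho between replicates (0.92) was 0.89 in 1 Mb windows. The 18 shared stretches of 20 kb or more became 1 with neighbours less than 2 kb apart, 32 with 10 kb and 10 in the higher-scoring 50%, and the longest became 20.6, 127 and 33.6 kb. The density ratio of the dense block to the sparse stretch (19.5), added after seeing the data, was 41.5 in the higher-scoring 50% and ran from 9.56 to 29.4 with a replicate left out. Beyond the way each alternative is built, the cause of these changes was not tested. Since depth is unknown, differences in peak number between the lists cannot be set against it, and the exact sign-flip permutation test over 2 libraries cannot go below 0.5.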
